A study of Homo sapiens with 12 samples.

Results

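The genes described here encode the ADAM, ADAMTS and MMP metalloproteases, the ADAMTS-like proteins and the TIMP inhibitors in Ishikawa cells, a human endometrial adenocarcinoma line. They were taken by gene symbol from the count files, which gave 60 of 45320 genes. There were 18 ADAM, 16 ADAMTS, 5 ADAMTSL, 19 MMP and 2 TIMP genes (TIMP1 and TIMP2). The choice went by symbol and not by level or change. A filter on low counts, applied to all genes, left 25 of the 60 for testing, and the other 35 are described by their counts.

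Poly(A) RNA was sequenced from 6 groups of 2 libraries. The first 3 groups carried a short hairpin against ARID1A (shARID1A) and received DMSO, the oestrogen 17-beta-estradiol (E2) at 10 nM, or the same dose of E2 together with fulvestrant at 100 nM. The other 3 carried a control hairpin (shNC) and received the same 3 treatments. ARID1A is the DNA-binding subunit of the BAF chromatin remodelling complex, and fulvestrant is an oestrogen receptor antagonist and degrader. All treatments lasted 8 h, in cells of both arms kept for at least 4 days in medium lacking phenol red and with 10% charcoal-stripped serum. The labels used here do not give the number of hairpins, clones or cultures behind each arm. What the p-values measure is thus the spread between libraries, possibly technical. Knockdown and any other difference between the cell populations cannot be told apart.

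Total counts ran from 29886931 to 38657162 per shARID1A library and from 28810351 to 33517594 per shNC library. ARID1A was at 53.7 to 61.6 CPM (counts scaled to library size) in shARID1A libraries, against 109.8 to 123.2 CPM in shNC libraries. Of 10 epithelial markers in the files, KRT19, CDH1, CLDN4 and ESRP1 stayed under 1 CPM in every library. The summed epithelial markers were at 1058 to 1215 CPM in shARID1A libraries and 1363 to 1495 CPM in shNC libraries, with 1 of 7 tested genes higher and 5 lower. The 9 stromal markers summed to 50.0 to 53.4 CPM in shARID1A libraries and 32.2 to 43.9 CPM in shNC libraries, mostly COL1A1, with THY1 at 0. Of 3 tested stromal markers COL1A1 was higher (0.60), and DCN (-2.91) and PDGFRB (-0.55) were lower. The 7 immune markers summed to 2.13 to 3.70 CPM in shARID1A libraries and 1.36 to 1.99 CPM in shNC libraries, with CD3E at 0. The 4 endothelial markers summed to at most 0.270 CPM in shARID1A libraries and 0.282 CPM in shNC libraries, with KDR at 0. The part of these marker differences in the results below was not tested.

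ADAM, ADAMTS and MMP enzymes are zinc proteases of the metzincin group. Most ADAMs are anchored in the membrane and cut the ectodomains of other membrane proteins, releasing growth factors, cytokines and receptors. ADAMTS enzymes are secreted and cut matrix proteoglycans, procollagens and other large extracellular proteins, whereas ADAMTSL proteins lack the protease domain and bind matrix microfibrils. MMPs degrade matrix and process many secreted proteins. TIMPs bind the active sites of these enzymes, with TIMP1 and TIMP2 acting mainly on MMPs. In the endometrium, matrix turnover by MMPs is known to vary with the menstrual cycle.

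Most of the transcript signal of these families came from 4 genes. ADAM15, TIMP2, TIMP1 and ADAM9 held 81.2% of all counts of the 60 genes in shARID1A libraries and 80.4% in shNC libraries. The 60 genes together took 0.126 to 0.130% of all counts in shARID1A libraries and 0.117 to 0.123% in shNC libraries. The TIMP genes held 45.2% of the families' counts in shARID1A libraries and 40.6% in shNC libraries, and the ADAM genes 41.7% in shARID1A libraries and 46.8% in shNC libraries. The MMP genes held 5.93% in shARID1A libraries and 5.63% in shNC libraries.

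Levels between genes were compared as CPM per kilobase of exon length (FPKM). In shNC libraries TIMP1 stood first at 132 FPKM, followed by TIMP2 at 46.9 FPKM and ADAM15 at 42.1 FPKM. The ranges of TIMP2 and ADAM15 over the 6 shNC libraries overlapped, whereas TIMP1 lay clear of both. ADAM9 followed at 27.4 FPKM, MMP17 at 14.7 FPKM, and the sheddases ADAM10 and ADAM17 at 7.94 and 7.55 FPKM, with overlapping ranges. ADAMTS1 led the ADAMTS genes at 6.04 FPKM and ADAMTSL5 the ADAMTSL genes at 4.90 FPKM. MMP15 came out at 14.1 FPKM, but the files give this gene only 349 bases of exon, so its level per length is uncertain. The other exon lengths were used as annotated and not checked, among them 2158 bases for ADAM17 and 2530 for ADAM12. From MMP28 (0.651 FPKM) downward, each gene's range overlapped that of the next. In shARID1A libraries MMP28 held rank 11 of 25, against rank 14 in shNC libraries, and ADAM12 rank 15, against rank 11 in shNC libraries.

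**Figure D1:**
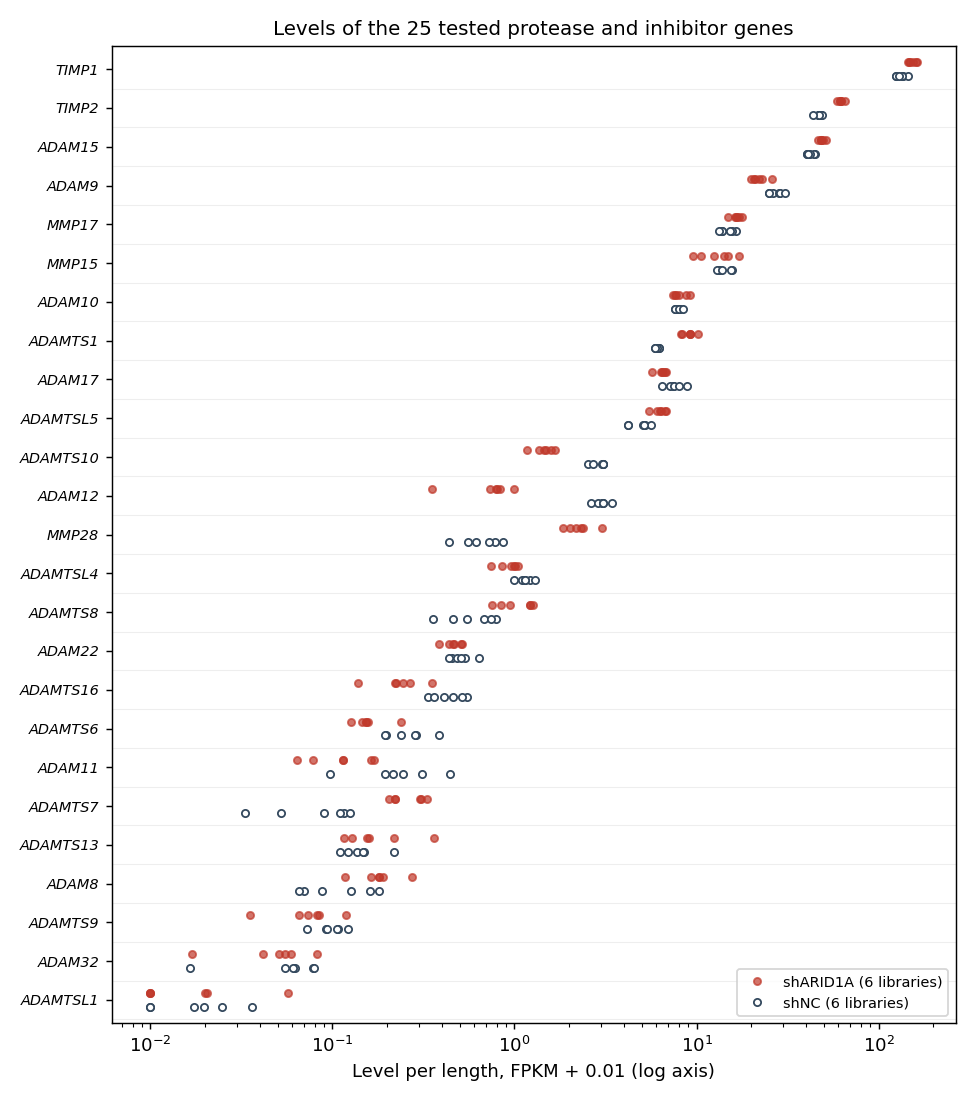
Level of each tested gene on a log axis in FPKM with 0.01 added, with 6 shARID1A and 6 shNC libraries per gene as points, genes ordered by level. TIMP1 lies above all others, and the arms separate for ADAM12 (lower in shARID1A) and MMP28 (higher in shARID1A).

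With the 3 treatments averaged, 17 of the 25 tested genes differed between shARID1A and shNC, 9 higher and 8 lower (edgeR quasi-likelihood test, Benjamini-Hochberg adjusted p under 0.05 over all 17020 genes tested). That is 68.0% of these genes, where 43.1% of all tested genes were called, 20.3% higher and 22.8% lower. Of the 9 ADAM genes 4 were lower, 1 was higher and 4 were not called. The ADAMTS genes were split (3 higher and 3 lower of 8), and 2 of 3 MMP and both TIMP genes were higher. The median size of the log2 fold change was 0.39 over the 25 genes and 0.21 over all tested genes. Of the 18 members averaging 1 CPM or more over all libraries 15 were called, beside 51.4% of all genes at that level. Changes were small for 8 of the 17, under 1.5-fold, and over 2-fold for 5: ADAM12, ADAM11, ADAMTS10, ADAMTS7 and MMP28. In bulk RNA, fewer cells expressing a gene and less RNA per cell cannot be told apart.

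Within single treatments the calls numbered 10 in DMSO (6 higher, 4 lower), 12 in E2 (7 higher, 5 lower) and 10 in E2 plus fulvestrant (6 higher, 4 lower). Of all tested genes, 19.2% were called in DMSO (9.7% higher, 9.5% lower), 27.2% in E2 (13.4% higher, 13.8% lower) and 24.2% in E2 plus fulvestrant (11.4% higher, 12.8% lower). These counts rest on 2 libraries per group. Without shNC DMSO replicate 2 the DMSO count was 5, and without shARID1A E2 plus fulvestrant replicate 1 the count for that treatment was 5. ADAM15, ADAMTS1, MMP28 and TIMP2 were called higher in all 3 treatments, and ADAM12, ADAM9 and ADAMTS10 lower in all 3, beside 6.76% of all tested genes higher and 6.5% lower in all 3. No gene was called in opposite directions in different treatments. The lowest library of one arm lay above the highest of the other for 8 of the 25 genes (ADAM12, ADAM15, ADAMTS1, ADAMTS7, ADAMTS10, MMP28, TIMP1 and TIMP2), beside 22.0% of all tested genes.

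**Figure D2:**
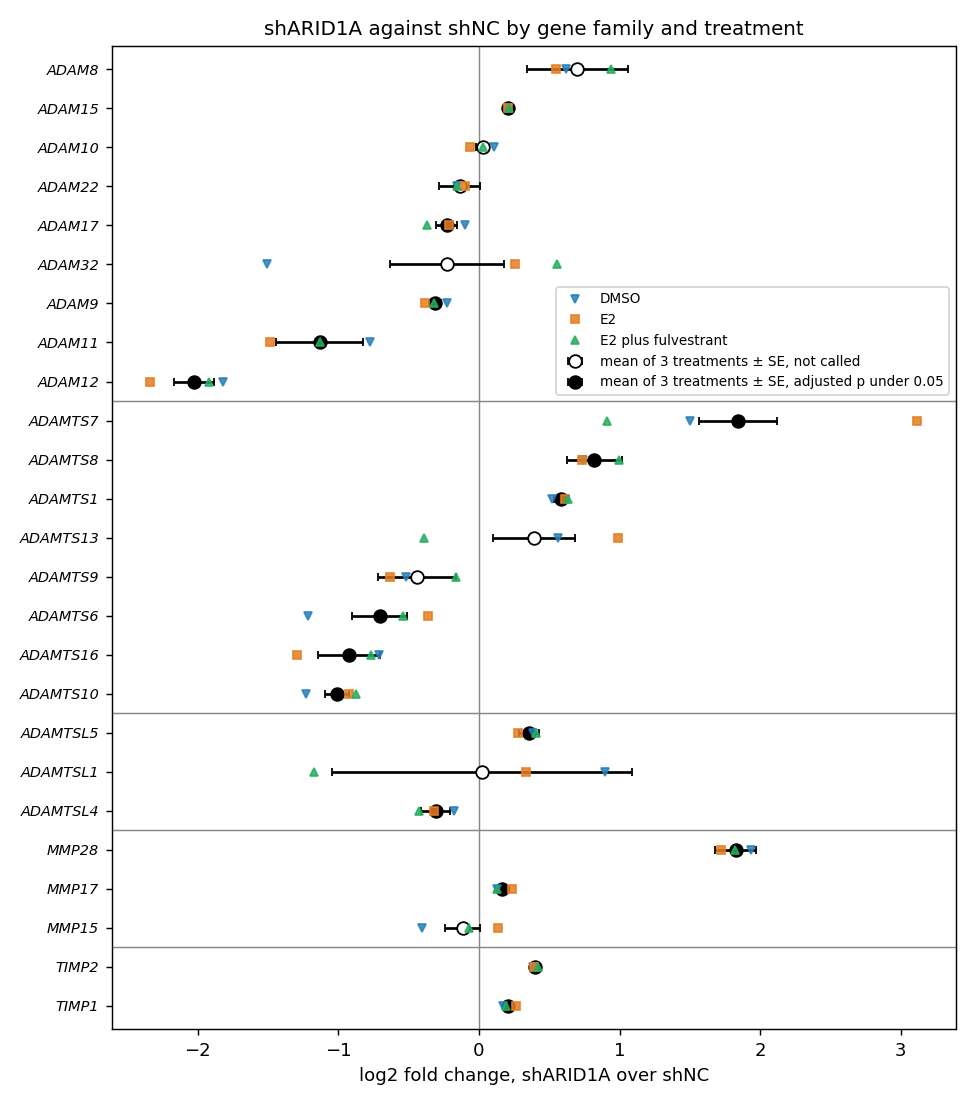
log2 fold change of shARID1A over shNC for the 25 tested genes, with the mean of 3 treatments and its standard error as circles (filled where called) and each treatment as a coloured mark. ADAM12 lies furthest to the left at -2.03, and ADAMTS7 and MMP28 furthest to the right at 1.84 and 1.82.

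Among the ADAM genes, ADAM12 changed most. ADAM12 encodes a protease of mesenchymal and tumour cells, with a membrane form and a secreted form, and lies at chr10:127738172-128077024 (hg19, minus strand). It was at 1.98 and 2.09 CPM in DMSO, 0.862 and 2.0 CPM in E2 and 2.50 and 1.82 CPM in E2 plus fulvestrant in shARID1A libraries. In shNC libraries it was at 7.67 and 6.67 CPM in DMSO, 7.21 and 7.74 CPM in E2 and 7.70 and 8.68 CPM in E2 plus fulvestrant. Every shARID1A library was below every shNC library. The mean was 1.88 ± 0.547 CPM in shARID1A and 7.61 ± 0.667 CPM in shNC (SD, n = 6 each), a 4.07-fold decrease (log2 fold change -2.03, SE 0.14, edgeR adjusted p = 2.73e-13). The log2 fold change was -1.82 in DMSO, -2.34 in E2 and -1.92 in E2 plus fulvestrant.

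The promoter of ADAM12 is printed as the gene with the largest decrease, with the start of the gene after the last base (RefSeq, GRCh38.p14, chr10:126388478-126388727, minus strand). Capitals mark matches to GGGCGG, the GC box bound by SP factors, on either strand.
ADAM12: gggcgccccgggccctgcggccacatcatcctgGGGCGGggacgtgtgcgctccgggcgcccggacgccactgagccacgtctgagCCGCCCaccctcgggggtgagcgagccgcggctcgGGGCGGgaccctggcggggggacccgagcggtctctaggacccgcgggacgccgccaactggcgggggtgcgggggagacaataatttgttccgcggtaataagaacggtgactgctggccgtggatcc
The 250 bases held 3 GC boxes and 31 CpG dinucleotides at 73.6% G and C, with no match to the AP-1 letters TGANTCA or to TATAAA.

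ADAM9 and ADAM15, the 2 most abundant ADAM transcripts, moved in opposite directions. ADAM9, a widely expressed membrane sheddase, was at 159, 144, 144, 138, 152 and 178 CPM in the shARID1A libraries, against 173, 181, 173, 195, 200 and 213 CPM in the shNC libraries, in the same order of treatments. The arms overlapped only through the shARID1A E2 plus fulvestrant library at 178 CPM. ADAM9 fell by 0.31 on the log2 scale (SE 0.04, edgeR adjusted p = 2.05e-07) and was called lower in each treatment. The ADAM9 call in DMSO did not hold without shNC DMSO replicate 2 or shARID1A DMSO replicate 2 (edgeR adjusted p = 0.139 and 0.295), nor that in E2 plus fulvestrant without shARID1A replicate 1 (0.0907). ADAM15, a membrane protease with an integrin-binding disintegrin domain, was at 317, 328, 319, 338, 317 and 306 CPM in shARID1A libraries, against 294, 266, 292, 278, 267 and 269 CPM in shNC libraries. Its lowest shARID1A library exceeded its highest shNC library, and the log2 fold change was 0.21 (SE 0.03, edgeR adjusted p = 3.36e-06). The ADAM15 calls in single treatments did not hold without 1 of 5 libraries, at edgeR adjusted p from 0.0720 (without shARID1A E2 plus fulvestrant replicate 1) to 0.229 (without shNC DMSO replicate 2). The other 3 were shARID1A DMSO, shARID1A E2 and shNC E2 replicate 2.

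ADAM17 and ADAM10 are the 2 principal sheddases. ADAM17, which releases TNF and several EGF receptor ligands, was at 12.2 to 14.7 CPM in shARID1A libraries and 14.0 to 19.1 CPM in shNC libraries (log2 fold change -0.23, SE 0.07, edgeR adjusted p = 0.00959). Of the single treatments it was called in E2 plus fulvestrant alone (-0.37, edgeR adjusted p = 0.025), and without that treatment the adjusted p of the mean was 0.180. ADAM10, the sheddase of Notch receptors and of E- and N-cadherin, averaged 54.8 CPM in shARID1A and 53.8 CPM in shNC. Its log2 fold change of 0.02 had a SE of 0.05 (edgeR adjusted p = 0.717).

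The remaining ADAM genes were at low levels. ADAM11, which lacks a working protease site, was at 0.240 to 0.703 CPM in shARID1A libraries and 0.384 to 1.91 CPM in shNC libraries (log2 fold change -1.13, SE 0.31, edgeR adjusted p = 0.00315). Without shNC E2 plus fulvestrant replicate 1 its adjusted p was 0.0547, and without the E2 treatment 0.0740. ADAM8, ADAM22 and ADAM32 did not pass the test, with log2 fold changes of 0.70 (SE 0.36), -0.14 (SE 0.14) and -0.23 (SE 0.41).

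Among the ADAMTS genes, ADAMTS7 rose and ADAMTS10 fell most. ADAMTS7, a protease that cuts cartilage oligomeric matrix protein and thrombospondins (chr15:79056293-79103625, hg19, minus strand), was at 1.75 and 1.15 CPM in DMSO, 1.60 and 1.62 CPM in E2 and 1.06 and 1.15 CPM in E2 plus fulvestrant in shARID1A libraries. In shNC libraries it was at 0.576 and 0.438 CPM in DMSO, 0.128 and 0.232 CPM in E2 and 0.626 and 0.545 CPM in E2 plus fulvestrant. The arms did not overlap, and the shNC E2 libraries were the lowest of the 12. The mean was 1.39 ± 0.300 CPM in shARID1A and 0.424 ± 0.202 CPM in shNC (SD, n = 6 each), a 3.59-fold increase (log2 fold change 1.84, SE 0.28, edgeR adjusted p = 2.25e-06). It was called in DMSO (1.5) and in E2 (3.12), and had a log2 fold change of 0.91 in E2 plus fulvestrant (edgeR adjusted p = 0.155). Without the E2 treatment the mean log2 fold change was 1.2 (edgeR adjusted p = 0.00412). The call in DMSO did not hold without shNC DMSO replicate 2 (adjusted p = 0.118) or shARID1A DMSO replicate 1 (0.190). Pseudogene copies of ADAMTS7 lie elsewhere in the genome, so the assignment of its reads is uncertain.

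The ADAMTS7 promoter is shown as that of the largest increase among the genes with a promoter in the table (chr15:78811465-78811714, minus strand, same source and capitals).
ADAMTS7: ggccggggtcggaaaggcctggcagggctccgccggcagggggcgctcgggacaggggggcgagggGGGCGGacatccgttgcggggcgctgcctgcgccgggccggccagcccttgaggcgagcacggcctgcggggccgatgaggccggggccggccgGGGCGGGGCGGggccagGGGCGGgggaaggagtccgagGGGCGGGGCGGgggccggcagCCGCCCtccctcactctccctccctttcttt
It held 7 GC boxes, some of them overlapping, and 29 CpG dinucleotides at 80.8% G and C. Like that of ADAM12, it held GC boxes, which were in 67.3% of the promoters of all tested genes, at a median of 65.2% G and C. Any part of these letters in the changes was not tested.

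ADAMTS10, which acts in fibrillin microfibril formation, was at 6.57, 8.22, 9.01, 7.67, 8.40 and 9.41 CPM in shARID1A libraries, against 17.3, 17.3, 17.2, 14.4, 17.5 and 15.2 CPM in shNC libraries. The arms did not overlap. The log2 fold change was -1.01 (SE 0.09, edgeR adjusted p = 2.22e-11), a 2.01-fold decrease, and it was called lower in each treatment. ADAMTS1, a versican- and aggrecan-cleaving protease needed for ovulation and normal uterine structure in mice, moved the other way. It was at 49.3, 43.6, 49.3, 49.2, 44.3 and 54.5 CPM in shARID1A libraries, against 31.8, 33.3, 33.2, 31.4, 32.4 and 31.4 CPM in shNC libraries. Its shNC libraries spread little (SD 0.848 CPM), and its log2 fold change was 0.59 (SE 0.06, edgeR adjusted p = 2.45e-10).

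Another 3 ADAMTS genes were called, all under 4 CPM in every library. ADAMTS8 was at 1.68 to 2.81 CPM in shARID1A libraries and 0.783 to 1.75 CPM in shNC libraries (log2 fold change 0.82, SE 0.20, edgeR adjusted p = 0.00103) and was called in no single treatment. ADAMTS16 was at 0.540 to 1.45 CPM in shARID1A libraries and 1.36 to 2.27 CPM in shNC libraries (-0.92, SE 0.22, edgeR adjusted p = 0.00097). ADAMTS6 was at 0.995 to 1.96 CPM in shARID1A libraries and 1.57 to 3.20 CPM in shNC libraries (-0.71, SE 0.20, edgeR adjusted p = 0.00397). Without the DMSO treatment the adjusted p of ADAMTS6 was 0.157. ADAMTS13, the protease of von Willebrand factor, and ADAMTS9 did not pass, at log2 fold changes of 0.39 (SE 0.29) and -0.44 (SE 0.28).

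The ADAMTSL genes were split. ADAMTSL5, a microfibril-associated protein, was at 20.5 to 25.5 CPM in shARID1A libraries and 15.7 to 21.1 CPM in shNC libraries (log2 fold change 0.36, SE 0.07, edgeR adjusted p = 0.000111). It was called in DMSO and in E2 plus fulvestrant. The DMSO call did not hold without replicate 2 of shARID1A (edgeR adjusted p = 0.402) or of shNC (0.332), nor the other without shARID1A replicate 1 (0.122) or shNC replicate 2 (0.242). ADAMTSL4, which binds fibrillin-1 microfibrils, was at 4.49 to 6.40 CPM in shARID1A libraries and 6.04 to 7.97 CPM in shNC libraries (-0.31, SE 0.10, edgeR adjusted p = 0.0149). Its adjusted p was 0.0529 without shNC E2 plus fulvestrant replicate 2 and 0.0543 without shARID1A E2 plus fulvestrant replicate 1. ADAMTSL4 was called in no single treatment. The edgeR adjusted p of its mean was 0.0782 without the E2 treatment and 0.118 without E2 plus fulvestrant. Of the ADAMTSL4 exons, 29.4% overlap an annotated gene on the same strand that had no counts, where reads cannot be assigned to either gene alone. ADAMTSL1 had at most 0.607 CPM in shARID1A libraries and 0.337 CPM in shNC libraries and no resolved change (log2 fold change 0.02, SE 1.07).

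Only 3 of the 19 MMP genes passed the filter, and MMP28 changed most. MMP28, or epilysin, is a secreted MMP of epithelia that can be activated by furin (chr17:34083268-34122711, hg19, minus strand). It was at 5.61 and 6.61 CPM in DMSO, 6.48 and 8.43 CPM in E2 and 5.14 and 6.04 CPM in E2 plus fulvestrant in shARID1A libraries. In shNC libraries it was at 1.52 and 1.68 CPM in DMSO, 2.17 and 2.38 CPM in E2 and 1.19 and 1.99 CPM in E2 plus fulvestrant. Every shARID1A library was above every shNC library. The mean was 6.39 ± 1.14 CPM in shARID1A and 1.82 ± 0.440 CPM in shNC (SD, n = 6 each), a 3.54-fold increase (log2 fold change 1.82, SE 0.15, edgeR adjusted p = 6.87e-12). The log2 fold change was 1.93 in DMSO, 1.72 in E2 and 1.82 in E2 plus fulvestrant.

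MMP17, a membrane MMP held by a GPI anchor, was at 59.4 to 71.3 CPM in shARID1A libraries and 53.0 to 66.1 CPM in shNC libraries. Its log2 fold change was 0.16 (SE 0.05, edgeR adjusted p = 0.00976), with adjusted p = 0.0666 without shNC DMSO replicate 2 and 0.0643 without shNC E2 plus fulvestrant replicate 2. Of the single treatments MMP17 was called in E2 alone (0.23, edgeR adjusted p = 0.0445), and without that treatment the adjusted p of the mean was 0.103. MMP15, a transmembrane MMP, was at 3.33 to 6.0 CPM in shARID1A libraries and 4.54 to 5.46 CPM in shNC libraries, with a log2 fold change of -0.11 (SE 0.12).

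Both TIMP genes were higher in shARID1A. TIMP2, which inhibits MMPs and also serves as the adaptor for pro-MMP2 on membrane MMP14, was at 318, 319, 324, 339, 324 and 307 CPM in shARID1A libraries, against 244, 243, 252, 254, 244 and 227 CPM in shNC libraries. The arms did not overlap, with a mean of 322 ± 10.5 CPM in shARID1A and 244 ± 9.28 CPM in shNC (SD, n = 6 each). The log2 fold change was 0.40 (SE 0.03, edgeR adjusted p = 4.31e-12) and lay between 0.39 and 0.42 in the single treatments. TIMP1 was at 258, 261, 282, 287, 273 and 256 CPM in shARID1A libraries, against 242, 219, 255, 220, 236 and 228 CPM in shNC libraries. Its arms were nearly touching, at a lowest shARID1A library of 256 CPM and a highest shNC library of 255 CPM. The log2 fold change was 0.21 (SE 0.04, edgeR adjusted p = 2.11e-05). In DMSO alone the edgeR adjusted p of TIMP1 was 0.0557. It was under 0.05 in 6 alternatives, at 0.0236 to 0.0358, including the replicate block (0.0346) and a fit of the 4 libraries compared (0.0313). The other alternatives, DESeq2 among them, left TIMP1 uncalled in DMSO. The TIMP1 call in E2 did not hold without shNC E2 replicate 2 (edgeR adjusted p = 0.146), nor that in E2 plus fulvestrant without shARID1A replicate 1 (0.249) or shNC replicate 2 (0.184).

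The TIMP1 promoter is shown as the TIMP promoter in the table (chrX:47582186-47582435, plus strand, same source and capitals).
TIMP1: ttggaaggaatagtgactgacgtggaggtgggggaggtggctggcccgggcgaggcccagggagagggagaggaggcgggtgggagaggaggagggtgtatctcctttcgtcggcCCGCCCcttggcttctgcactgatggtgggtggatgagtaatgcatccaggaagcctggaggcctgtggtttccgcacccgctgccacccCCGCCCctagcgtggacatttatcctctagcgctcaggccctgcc
It held 2 GC boxes, 12 CpG dinucleotides and 64.8% G and C.

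**Figure D3:**
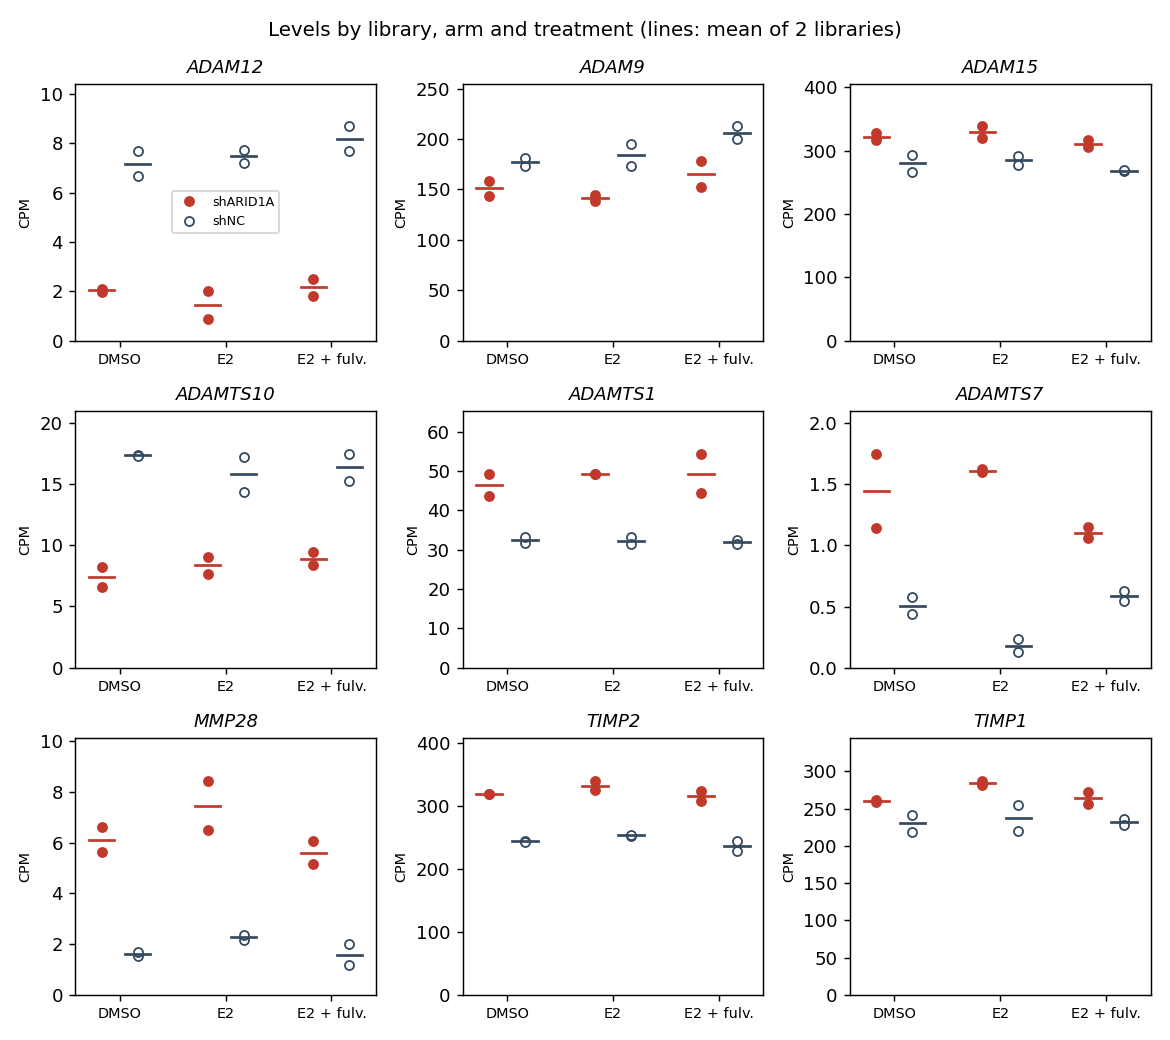
CPM of 9 genes in each of the 12 libraries, by treatment, with shARID1A left of shNC and a bar at each group mean. ADAM12 and ADAMTS10 are lower, and ADAMTS7, MMP28, ADAMTS1, ADAM15, TIMP2 and TIMP1 higher, in every shARID1A library than in any shNC library.

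E2 and fulvestrant changed none of the 25 genes past the threshold. In E2 against DMSO, averaged over the arms, 0 were called and 1 of 25 had an unadjusted p under 0.05. Of all tested genes, 0.00588% were called and 4.09% had an unadjusted p under 0.05. That gene was MMP28, with 6.48 and 8.43 CPM in E2 against 5.61 and 6.61 CPM in DMSO in shARID1A cells, and 2.17 and 2.38 CPM in E2 against 1.52 and 1.68 CPM in DMSO in shNC cells. Its log2 fold change was 0.41 (SE 0.19, edgeR adjusted p = 0.999). In E2 plus fulvestrant against E2, 0 were called and 6 of 25 had an unadjusted p under 0.05, beside 0.0646% of all tested genes called and 14.6% with such a p.

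The smallest p in E2 plus fulvestrant against E2 was that of ADAM9. It was at 152 and 178 CPM in E2 plus fulvestrant against 144 and 138 CPM in E2 in shARID1A cells, and at 200 and 213 CPM against 173 and 195 CPM in shNC cells. The 4 libraries with fulvestrant were each above both E2 libraries of their arm, and the log2 fold change was 0.20 (SE 0.05, edgeR adjusted p = 0.0952). DESeq2 gave it an adjusted p of 0.0189, edgeR without the filter on low counts 0.00636, and edgeR without shNC E2 replicate 2 or shARID1A E2 plus fulvestrant replicate 1 0.0262 and 0.0234. MMP28 had a log2 fold change of -0.48 in this comparison (SE 0.19, edgeR adjusted p = 0.234), the opposite sign to its value for E2 against DMSO. Both comparisons share the E2 libraries. The other 4 were ADAM11 (-1.24), ADAM17 (0.19), TIMP2 (-0.09) and ADAM15 (-0.08).

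No gene of these families was called for a difference of the E2 or the fulvestrant effect between shARID1A and shNC, beside 0.0294% and 0.0118% of all tested genes. In each of these 2 tests 1 gene had an unadjusted p under 0.05, and both times it was ADAMTS7, beside 6.35% and 3.48% of all tested genes. Its E2 effect was higher in shARID1A than in shNC by 1.62 on the log2 scale (edgeR adjusted p = 0.779). Its fulvestrant effect differed by -2.20 (shARID1A minus shNC, log2 scale, edgeR adjusted p = 0.9998). Both rest on the same shNC E2 libraries, at 0.128 and 0.232 CPM.

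**Figure D4:**
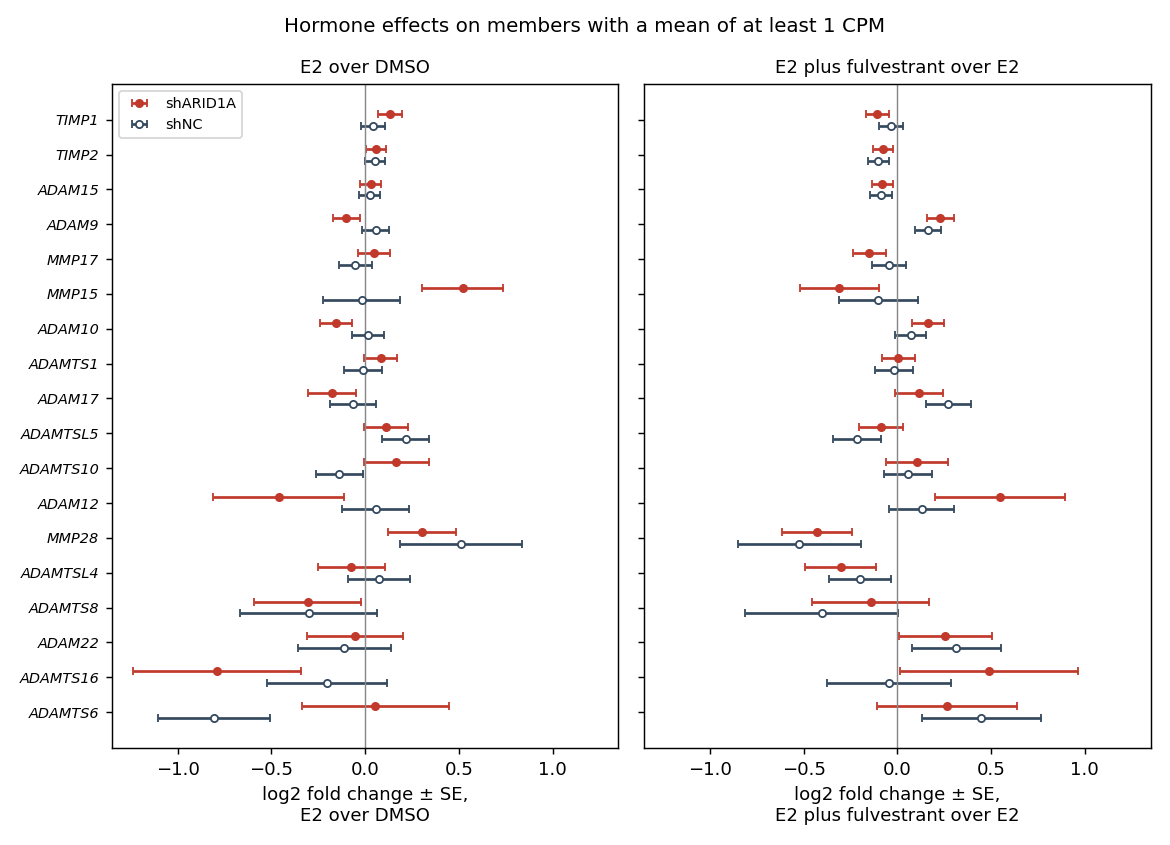
log2 fold change with its standard error for the 18 genes averaging 1 CPM or more, for E2 over DMSO (left) and E2 plus fulvestrant over E2 (right), with shARID1A and shNC drawn apart. Most intervals reach or lie near 0, and ADAM9 lies to the right of 0 in both arms on the right side.

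The 35 genes under the filter included 16 of the 19 MMP genes. Of the 35, 22 had no count in any library and 13 had a few, at most 17 counts in a library. MMP1, MMP9, TIMP3, TIMP4 and ADAMTS5 were not among the 60 genes, so their levels are not known here. MMP14, the membrane activator of pro-MMP2, had 5 counts over all 6 shARID1A libraries and 5 over all 6 shNC libraries. MMP2, gelatinase A, had 1 count in shARID1A and 4 in shNC. MMP7, matrilysin, which is expressed by glandular epithelium, had 13 counts in shARID1A and 37 in shNC. MMP11, or stromelysin-3, had 26 counts in shARID1A and 28 in shNC. MMP19 had 24 counts in shARID1A and 9 in shNC. MMP23B and its near-identical copy MMP23A had 24 and 20 counts in shARID1A and 2 and 3 in shNC, and their reads cannot be assigned with certainty. A count of 0 in a library allows a level of up to 0.0776 to 0.104 CPM.

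RefSeq promoters could be matched for 35 of the 60 genes, 15 of them tested. The upstream bases of MMP7 and MMP10, a stromelysin, are shown as promoters of untested MMPs that hold AP-1 letters (chr11:102530748-102530997 and chr11:102780629-102780878, both minus strand, GRCh38.p14). Capitals mark TGANTCA, the element bound by FOS and JUN factors, and TATAAA, the TATA box.
MMP7: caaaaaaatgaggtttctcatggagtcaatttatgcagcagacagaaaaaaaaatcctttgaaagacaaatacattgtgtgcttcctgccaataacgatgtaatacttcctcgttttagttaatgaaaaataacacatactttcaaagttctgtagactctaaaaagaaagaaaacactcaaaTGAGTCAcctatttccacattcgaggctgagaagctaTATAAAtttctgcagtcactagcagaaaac
MMP10: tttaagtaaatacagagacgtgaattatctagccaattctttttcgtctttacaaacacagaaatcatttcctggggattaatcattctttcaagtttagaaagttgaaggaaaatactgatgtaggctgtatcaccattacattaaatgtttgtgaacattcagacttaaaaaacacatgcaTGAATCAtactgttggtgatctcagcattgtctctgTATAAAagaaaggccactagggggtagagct
Both hold the 2 elements in the same order, with no GC box.

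Searched on both strands, TGANTCA was in 4 of the 35 promoters (ADAMTS12, MMP7, MMP10 and MMP20) and in 0 of the 15 of tested genes, beside 6.57% of 35116 RefSeq promoters and 3.85% of those of all tested genes. GGGCGG was in 26 of the 35 and 13 of the 15, beside 42.6% of RefSeq promoters and 67.3% of those of tested genes. TATAAA was in 7 of the 35 and 1 of the 15 (ADAMTS10), beside 10.7% and 5.07%. The promoters of MMP7, MMP8, MMP10, MMP20 and MMP26, all on chromosome 11, had 33.6 to 41.6% G and C and 0 to 3 CpG dinucleotides. The 15 of tested genes had a median of 73.6% G and C, beside 58.0% of all RefSeq promoters and 65.2% of those of tested genes. Matches to the 3 motifs did not overlap one another, though GGGCGG matches overlapped among themselves, and a match describes letters, not binding.

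Genes that act with these proteases were counted in 6 lists, in shARID1A against shNC over the mean of 3 treatments, where the median log2 fold change of all tested genes was -0.02 and 20.3% of them were higher and 22.8% lower. The counts of each list stand beside those shares. Of 20 tested membrane proteins known to be shed by ADAMs, 13 were lower and 1 higher, with a median of -0.34. Among the lower ones were the hyaluronan receptor CD44 (-0.80), N-cadherin CDH2 (-1.43), the receptor NOTCH3 (-1.15) and the Notch ligand JAG1 (-0.96). The higher one was the syndecan SDC4 (0.11), named after its value was seen. Of 7 tested ADAMTS substrates and matrix partners, 5 were lower and 1 higher, with fibrillin-2 FBN2 at -2.44, fibrillin-1 FBN1 at -0.32, the TGF-beta binding protein LTBP1 at -0.35 and type I collagen COL1A1 at 0.60. FBN1 and FBN2 form the microfibrils on which ADAMTS10 acts.

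Of 8 tested proteases and protease activators that act beside these families, 4 were higher and 3 lower, including the procollagen C-proteinase BMP1 (-0.81), the proprotein convertase PCSK7 (0.49), and the cathepsins CTSL (-0.37) and CTSB (0.36). Of 8 tested inhibitors and cofactors other than TIMPs, 3 were higher and 3 lower, including the MMP inhibitor RECK (0.72), the MMP inducer BSG (0.27), papilin PAPLN (-1.24) and TFPI2 (-1.20). None of the 7 tested iRhoms and tetraspanins that guide ADAM17 and ADAM10 was called. Of 12 tested AP-1, ETS and other factors known to act on MMP promoters, 4 were higher and 5 lower, including FOSL2 (0.51), ETV4 (-0.93), RUNX1 (-0.85) and ETV5 (-0.70). None of the genes in these lists was called for E2 or fulvestrant.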

How the data were processed

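The deposited values are raw counts of reads per gene, one file per library. Per the submitters' processing notes, Trim Galore, cutadapt and FastQC were used, with Subread 2.0.0, featureCounts 2.0.0 and hg19. Per the file headers, counting was not strand-specific, so antisense overlaps cannot be told apart. Samples were grouped by the labels (hairpin and treatment). The fulvestrant dose is typed with letters for zeros and was read as 100 nM.

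The 12 libraries were fitted in one model of 6 group means with edgeR 4.0.16 in R 4.3.3 (quasi-likelihood F-test, TMM scaling, filterByExpr by group, 17020 of 45320 genes tested) and Benjamini-Hochberg adjustment over all tested genes at 0.05. The standard error is the log2 fold change over the square root of F. CPM is TMM-scaled. FPKM is CPM per kilobase of the exon length in the files. Figures add 0.01 FPKM on the log axis. The floor is 3 counts, for counting error only. The fit was checked on simulated counts. DESeq2 1.42.0 served as an alternative, as did edgeR with other filters, scalings and left-out libraries.

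The genes and lists were chosen with earlier results of these data known. By the rule for naming, full values went to genes called in the mean and in at least 2 treatments at 1 CPM or more in an arm. They also went to the TIMP genes, to the 3 highest per family by FPKM and to genes called under E2 or fulvestrant. No gene of these families was called there. Those described for E2 and fulvestrant were named for an unadjusted p under 0.05, after their values were seen. Partner lists named up to 4 genes by smallest p; 1 list is not reported here. Motifs were searched in the 250 bases before each start.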

Additional observations from a re-analysis of the deposited data

How the results depend on the processing

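Of 1226 recomputed values of single genes, 1167 kept their direction and their side of the threshold, 35 lost and 10 gained a call, and 14 changed sign, all of genes that were not called. For shARID1A against shNC over 3 treatments, the count of 17 became 10 when tested against a 1.2-fold change. The calls lost there were those of ADAM9, ADAM15, ADAM17, ADAMTSL4, ADAMTSL5, MMP17 and TIMP1. With single libraries left out, the count ran from 15 to 17. In DMSO (10) it then ran from 5 to 11, in E2 (12) from 9 to 12, and in E2 plus fulvestrant (10) from 5 to 11. With the replicate number as a block, the counts were 17 over 3 treatments, 11 in DMSO, 12 in E2, 10 in E2 plus fulvestrant, and 0 for E2, fulvestrant and both differences between arms. The deviations of same-numbered libraries correlated at -0.23 to 0.29 over 15 pairs of groups, so the numbers were not taken to pair the libraries. Of the 15 pairs, 8 were negative and 7 over 0.1. The shNC groups and shARID1A E2 plus fulvestrant correlated positively with one another (0.13 to 0.29), as did shARID1A DMSO with shARID1A E2 (0.13). All pairs between these 2 sets were negative (-0.08 to -0.23). A factor shared by libraries of different numbers was not tested, and the block would not remove it. For fulvestrant, the count of 0 became 1 (ADAM9) under DESeq2 and without the filter, and ran from 0 to 1 with single libraries left out. The cause was not tested.

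The log2 fold changes that changed sign were those of 4 genes. ADAM32 was at 0.41 without DMSO and ran from -0.81 to 0.41 with single libraries left out. ADAM10 was at -0.0172 without DMSO and ran from -0.0194 to 0.0666 with single libraries left out. MMP15 was at 0.0303 without DMSO. ADAMTSL1 was at -0.00604 with the block and -0.14 without E2, and ran from -2.07 to 1.81 with single libraries left out. Depth limits genes near 1 CPM: ADAMTS7, ADAM11, ADAM8, ADAM32 and ADAMTSL1 rest on few reads. Single-treatment calls rest on 2 libraries per group.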
